A study of Mus musculus with 24 samples.

Results

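The genes described here encode the pore-forming and auxiliary subunits of voltage-gated sodium and calcium channels in mouse dorsal root ganglia. They were chosen by symbol alone: Scn genes that end in a or b, Cacna1, Cacna2d, Cacnb and Cacng genes. The rule found 39 genes of the 38215 in the deposited tables, namely 9 sodium channel alpha subunits, 4 sodium channel beta subunits, 10 calcium channel alpha1 subunits, 4 alpha2delta subunits, 4 calcium channel beta subunits and 8 gamma subunits. Of these, 37 were tested, after a filter that asked for 10 estimated reads or more in 4 libraries or more. Cacna1f, the L-type channel of the retina, and Cacng6, a gamma subunit of muscle, did not reach that level, with at most 7.09 and 16.7 estimated reads in a library. The neuronal channel gene that is now called Scn2a is listed under its older symbol Scn2a1, which the rule does not match, so its values are given beside the members.

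RNA was sequenced from whole ganglia of mice of the strains CAST, DBA and C57, taken 5 days after crush of the sciatic nerve (called injured here) or without a crush (called naive in the labels). That gave 6 groups of 4 libraries: injured CAST, injured DBA, injured C57, naive CAST, naive DBA and naive C57. The labels' treatment protocol speaks of sham injury where the sample labels say naive, so whether the naive mice had a sham operation is not known. The strains are inbred and carry no listed transgene, and the labels give no age. The sciatic nerve carries the axons of only some of the neurons in a ganglion, and which ganglia were taken, and whether a library holds 1 animal or several, is not given in the labels, so p-values measure the spread between these libraries. In such bulk RNA, fewer cells of a type and less RNA per cell cannot be told apart.

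A voltage-gated sodium channel is a large alpha subunit, which forms the pore and opens on depolarisation, held at the membrane by small beta subunits that set its gating and placement. A high-voltage-activated calcium channel has an alpha1 pore, a cytoplasmic beta subunit and an extracellular alpha2delta subunit that aids its traffic to the surface, whereas T-type alpha1 subunits can work alone. In sensory neurons sodium channels start and carry the action potential, and calcium channels control transmitter release and calcium entry at the terminals and the cell body. Several gamma subunits act mainly on AMPA-type glutamate receptors and not on calcium channels.

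Values are FPKM, fragments per kilobase of gene, scaled to the reads of the library, as the authors deposited them. Their kilobase term matched the whole genomic span of a gene with its introns, so a gene with long introns has a low FPKM even where many reads cover it, and levels of different genes are compared below only per kilobase of exon. Library totals recovered from the values were 51.4 to 145.5 M reads. The injury markers Atf3, Sprr1a and Gal were higher after crush in each strain, with summed estimated CPM (counts scaled to the library total) of 1936 to 3606 in injured and 22.1 to 50.2 in naive libraries. All 10 pan-neuronal markers were detected. After crush, 3 of them were called higher and 5 lower in CAST, 3 and 6 in DBA, and 3 and 5 in C57, and their summed CPM was 5664 to 6656 in injured and 4100 to 5332 in naive libraries. All 7 macrophage markers found were higher in each strain, with summed CPM of 230.2 to 343.1 in injured and 109.8 to 125.9 in naive libraries. The part of these shifts in the results below was not tested. A few libraries stood apart. Naive C57 replicate 1 was the lowest of its group for 16 of the 19 tested members with a span over 100 kb, injured CAST replicate 3 for 14, naive DBA replicate 4 for 13 and naive CAST replicate 4 for 12. The highest of its group was naive C57 replicate 3 for 14, injured CAST replicate 2 for 13 and injured C57 replicate 4 for 12. Naive DBA replicate 3 carried more skeletal muscle RNA than the others, with a summed CPM of 278.1 for 10 muscle markers, against 9.48 to 42.7 in the other naive DBA libraries.

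Most channel genes were lower in injured ganglia. A gene was called when limma's moderated test across all 26139 genes gave a Benjamini-Hochberg adjusted p under 0.05, and changes are differences of log2(estimated CPM + 0.5) ± SE, injured minus naive. The 0.5 makes a log2 change understate the fold of genes with few reads. In CAST, 24 members were lower and 2 higher, where 49.1% of all genes tested were called. The call in DBA was lower for 24 and higher for 4, at a background of 52.2%. In C57 there were 20 lower and 4 higher, at a background of 40.8%. Among all genes, calls lower came to 22.4% in CAST, 24.7% in DBA and 21.3% in C57, where 64.9%, 64.9% and 54.1% of the 37 members were lower. Calls higher came to 26.7%, 27.5% and 19.5% of all genes, where 5.41%, 10.8% and 10.8% of the members were higher. The median member changed by -0.46 in CAST, -0.37 in DBA and -0.25 in C57, where the median of all genes was 0.016, 0.014 and -0.0017.

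By class, the same 8 of 9 sodium channel alpha genes and all 4 sodium channel beta genes were lower in each strain. Among 9 tested calcium channel alpha1 genes, 3 were lower in CAST, 5 in DBA and 2 in C57. These are 33.3%, 55.6% and 22.2%, where 22.4%, 24.7% and 21.3% of all genes were lower, so the C57 share was near that of all genes. The 4 alpha2delta genes split evenly, 2 higher and 2 lower in each strain. In all, 19 members were lower in all 3 strains, where 14.6% of all genes were, and 2 members, Cacna2d1 and Cacna2d4, were higher in all 3, where 14.3% of all genes were. Cacng5 was called in opposite directions, lower in CAST and higher in C57. Of the 78 calls after crush, 69 were kept when each library in turn was left out. A further 8 members were called in 1 or 2 strains, and 7 in none: Scn3a, Cacna1a, Cacna1d, Cacna1g, Cacnb1, Cacnb2 and Cacng1.

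**Figure D1:**
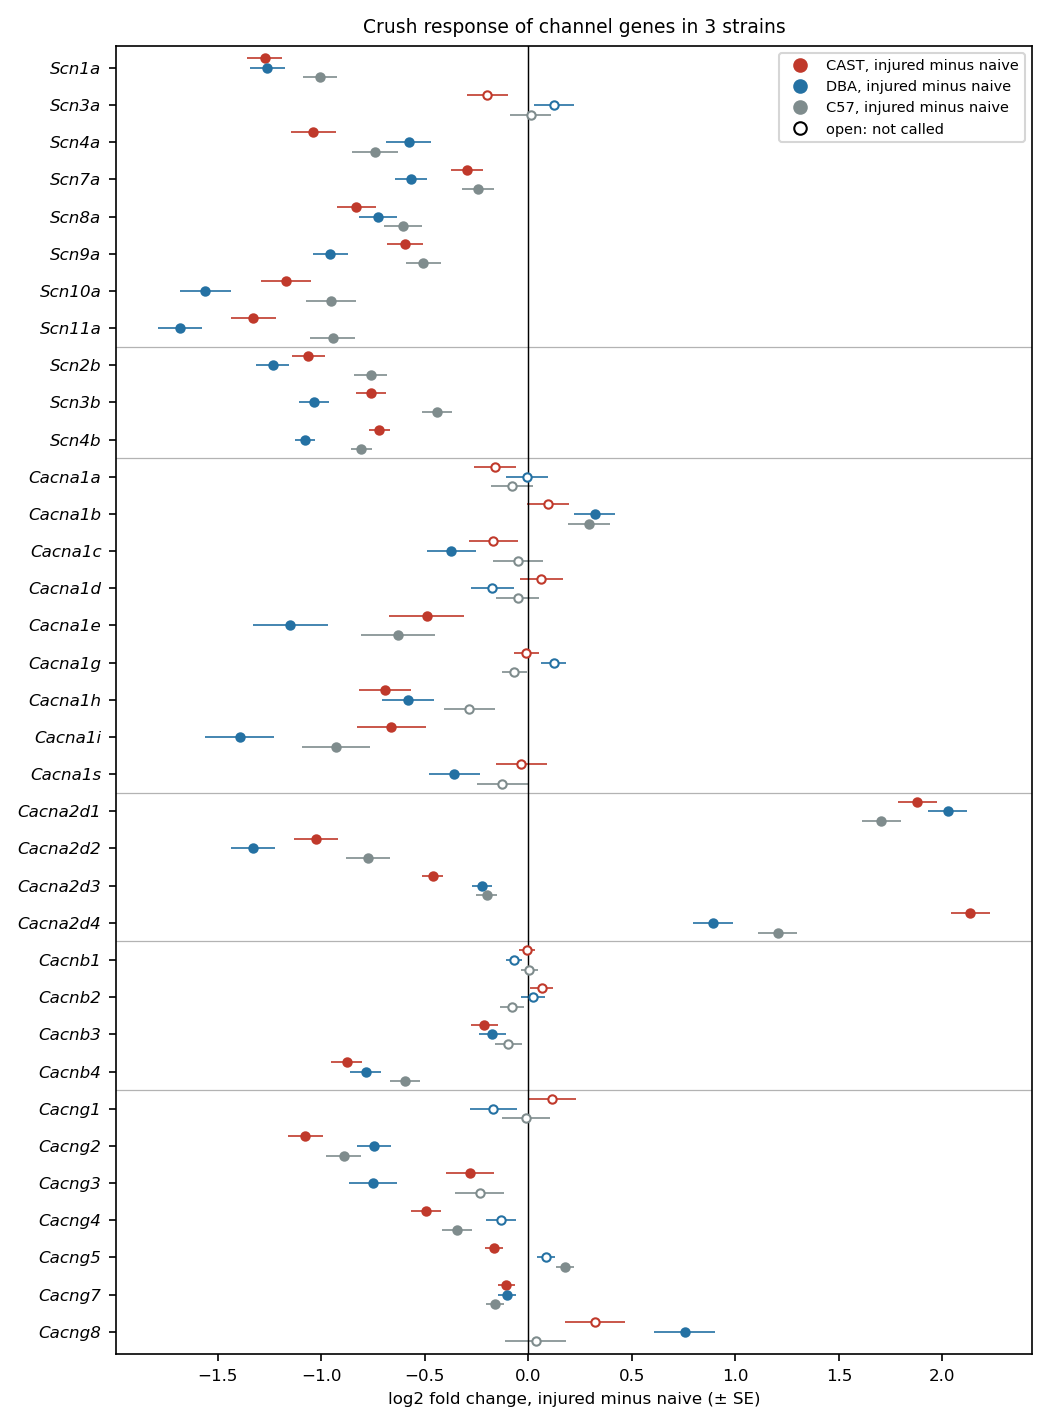
Log2 fold change ± SE, injured minus naive, of 35 tested channel genes in CAST (red), DBA (blue) and C57 (grey), 4 libraries a group; filled points passed an adjusted p of 0.05. The sodium channel genes shown other than Scn3a lie left of 0 in all 3 strains, while Cacna2d1 (1.71 to 2.02) and Cacna2d4 (0.89 to 2.14) lie far to the right.

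Scn10a encodes Nav1.8 and Scn11a encodes Nav1.9, the tetrodotoxin-resistant channels of nociceptors. They are neighbours on the minus strand of chromosome 9 (mm10), Scn10a at 119608456 to 119719322 and Scn11a at 119753759 to 119825456. Because the neighbours fell together, the 250 bases before the RefSeq start of each are shown, 5′ to 3′ on the strand of the gene (RefSeq, GRCm38.p6), for Scn10a at chr9:119719033-119719282 and for Scn11a at chr9:119825457-119825706; neither window holds either motif searched (AP-1, TGANTCA, and the GC box, GGGCGG, on both strands), so all letters are in lower case. The RefSeq start of Scn10a lies inside the span given above, which is that of GENCODE M21, so its window falls within that span.
Scn10a: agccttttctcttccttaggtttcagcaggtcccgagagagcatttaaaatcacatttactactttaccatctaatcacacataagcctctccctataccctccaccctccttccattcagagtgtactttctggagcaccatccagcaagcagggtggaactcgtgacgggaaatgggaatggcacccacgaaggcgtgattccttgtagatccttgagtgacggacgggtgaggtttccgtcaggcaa
Scn11a: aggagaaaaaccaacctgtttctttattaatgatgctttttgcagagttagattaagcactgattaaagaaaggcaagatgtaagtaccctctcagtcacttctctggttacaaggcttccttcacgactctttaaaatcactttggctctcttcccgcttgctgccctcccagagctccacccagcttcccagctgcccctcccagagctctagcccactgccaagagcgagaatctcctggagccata
C or G made up 49.6% of the Scn10a window and 48% of the Scn11a window, where the median of all promoters in the table was 52.4%. Of the 39 members, 29 are in the promoter table, with 39 promoters among them. The GC box occurred in 38.5% of those and in 32.7% of all 32851 promoters of the same length, and the AP-1 letters in 2.56% and 6.75%.

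In CAST, Scn10a had 5.96, 6.5, 3.76 and 5.2 FPKM in the injured libraries, against 11.6, 11.9, 12.02 and 11.8 FPKM in the naive libraries. In DBA, Scn10a had 2.81, 3.31, 2.73 and 2.79 FPKM in the injured libraries, against 8.69, 8.89, 8.36 and 8.31 FPKM in the naive libraries. In C57, Scn10a had 4.41, 5.94, 4.9 and 5.94 FPKM in the injured libraries, against 8.81, 10.05, 10.7 and 11.3 FPKM in the naive libraries. Every injured library lay below every naive library of its strain, and injured DBA ganglia were the lowest of all. Scn10a was 2.21-fold lower after crush in CAST (-1.17 ± 0.12, adjusted p = 2.48e-08), 2.94-fold lower in DBA (-1.56 ± 0.12, adjusted p = 1.81e-10) and 1.93-fold lower in C57 (-0.95 ± 0.12, adjusted p = 9.11e-07). Folds here and below are ratios of mean FPKM.

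Scn11a in CAST stood at 3.75, 3.81, 2.5 and 3.58 FPKM after crush and at 7.82, 8.69, 8.9 and 8.45 FPKM in naive ganglia. Scn11a in DBA stood at 2.41, 2.88, 2.47 and 2.32 FPKM after crush and at 8.02, 8.44, 7.97 and 7.92 FPKM in naive ganglia. Scn11a in C57 stood at 3.66, 4.91, 4.33 and 5.08 FPKM after crush and at 7.87, 8.62, 8.98 and 8.96 FPKM in naive ganglia. The injured libraries again lay apart from and below the naive ones, at levels that in naive ganglia overlapped between the strains. The fold fall of Scn11a was 2.48 in CAST (-1.33 ± 0.11, adjusted p = 3.1e-10), 3.21 in DBA (-1.68 ± 0.11, adjusted p = 4.18e-12) and 1.92 in C57 (-0.95 ± 0.11, adjusted p = 1.38e-07). Among 8 nociceptor markers that are not channels of the 2 families, 7 were lower and 1 higher in CAST, 7 lower in DBA, and 6 lower and 1 higher in C57. Their summed CPM was 608.2 to 942.5 in injured and 1194 to 1515 in naive libraries, and their part in the fall of Scn10a and Scn11a was not tested.

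Scn9a encodes Nav1.7, a channel of sensory and sympathetic neurons without which humans feel no pain. For Scn9a, injured CAST ganglia gave 0.346, 0.373, 0.316 and 0.342 FPKM, and naive CAST ganglia 0.537, 0.525, 0.519 and 0.505 FPKM. For Scn9a, injured DBA ganglia gave 0.249, 0.234, 0.27 and 0.257 FPKM, and naive DBA ganglia 0.497, 0.524, 0.476 and 0.473 FPKM. For Scn9a, injured C57 ganglia gave 0.371, 0.384, 0.4005 and 0.435 FPKM, and naive C57 ganglia 0.439, 0.615, 0.676 and 0.56 FPKM. The 2 states did not overlap in any strain, though naive C57 replicate 1 came close to the injured range. Scn9a was 1.51-fold lower in CAST (-0.60 ± 0.086, adjusted p = 2.66e-06), 1.95-fold in DBA (-0.96 ± 0.086, adjusted p = 1.16e-09) and 1.44-fold in C57 (-0.51 ± 0.086, adjusted p = 3.39e-05). An antisense transcript, Gm13629, covers 42.6% of the gene and was lower by much the same amounts, with changes of -0.60 in CAST, -0.95 in DBA and -0.47 in C57. Gm13629 had 17252.5 estimated reads on average, against 6972 for Scn9a. Whether counting used strand is not given in the sources used here, so reads of Scn9a and of Gm13629 cannot be told apart in the shared stretch.

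Scn1a (Nav1.1) and Scn8a (Nav1.6) are the channels of large myelinated sensory neurons, Scn8a being the main channel of nodes of Ranvier. In CAST, Scn1a had 0.0759, 0.0746, 0.0652 and 0.0744 FPKM in the injured libraries, against 0.186, 0.176, 0.18 and 0.175 FPKM in the naive libraries. In DBA, Scn1a had 0.0866, 0.0916, 0.0939 and 0.0992 FPKM in the injured libraries, against 0.239, 0.231, 0.215 and 0.221 FPKM in the naive libraries. In C57, Scn1a had 0.0788, 0.0905, 0.0855 and 0.0999 FPKM in the injured libraries, against 0.146, 0.199, 0.211 and 0.172 FPKM in the naive libraries. No injured library reached the lowest naive one of its strain. Scn1a was 2.47-fold lower in CAST (-1.27 ± 0.083, adjusted p = 5.35e-12), 2.44-fold in DBA (-1.26 ± 0.083, adjusted p = 5.17e-12) and 2.05-fold in C57 (-1.01 ± 0.083, adjusted p = 6.11e-10).

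Scn8a in CAST stood at 0.267, 0.301, 0.232 and 0.263 FPKM after crush and at 0.48, 0.462, 0.499 and 0.452 FPKM in naive ganglia. Scn8a in DBA stood at 0.265, 0.277, 0.281 and 0.29 FPKM after crush and at 0.497, 0.479, 0.438 and 0.436 FPKM in naive ganglia. Scn8a in C57 stood at 0.277, 0.284, 0.257 and 0.315 FPKM after crush and at 0.338, 0.438, 0.521 and 0.448 FPKM in naive ganglia. The injured ranges of the 3 strains nearly coincide, between 0.232 and 0.315 FPKM, all below the naive ranges. Scn8a was 1.78-fold lower in CAST (-0.83 ± 0.092, adjusted p = 5.06e-08), 1.66-fold in DBA (-0.73 ± 0.092, adjusted p = 3.8e-07) and 1.54-fold in C57 (-0.61 ± 0.092, adjusted p = 8.6e-06). Of 7 other markers of myelinated sensory neurons, 7 were lower in CAST, 6 in DBA and 7 in C57, and none was higher.

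Scn3a, the embryonic channel Nav1.3, is known from rat as a channel that returns in sensory neurons after nerve injury. It was the one alpha gene with no call after crush in any strain. For Scn3a, injured CAST ganglia gave 0.0721, 0.0779, 0.0604 and 0.0663 FPKM, and naive CAST ganglia 0.0763, 0.07996, 0.0782 and 0.0846 FPKM. For Scn3a, injured DBA ganglia gave 0.0635, 0.0614, 0.0645 and 0.0605 FPKM, and naive DBA ganglia 0.0578, 0.057, 0.056 and 0.0571 FPKM. For Scn3a, injured C57 ganglia gave 0.0494, 0.0467, 0.0486 and 0.0521 FPKM, and naive C57 ganglia 0.0352, 0.0509, 0.0627 and 0.0501 FPKM. In DBA every injured library was above every naive one by a small margin, and in CAST and C57 the ranges overlapped. The changes were -0.20 ± 0.097, adjusted p = 0.0979 in CAST, 0.12 ± 0.097, adjusted p = 0.307 in DBA and 0.01 ± 0.097, adjusted p = 0.95 in C57. The CAST value passed as lower under upper-quartile scaling (adjusted p = 0.0354), under median-of-ratios scaling (0.0365) and without injured CAST replicate 2 (0.0464), among other settings. The DBA value passed as higher when the DBA groups were fitted alone (0.0302). Scn2a1, the neuronal channel Nav1.2, also passed in no strain, with changes of -0.056 ± 0.078 in CAST, -0.14 ± 0.078 in DBA and -0.088 ± 0.078 in C57.

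Scn4a encodes Nav1.4, the channel of skeletal muscle. Injured CAST libraries held Scn4a at 0.0259, 0.0315, 0.0169 and 0.0198 FPKM, compared with 0.073, 0.0551, 0.0575 and 0.0666 FPKM in the naive CAST libraries. Injured DBA libraries held Scn4a at 0.238, 0.201, 0.212 and 0.215 FPKM, compared with 0.366, 0.31, 0.366 and 0.286 FPKM in the naive DBA libraries. Injured C57 libraries held Scn4a at 0.17, 0.185, 0.153 and 0.19 FPKM, compared with 0.252, 0.329, 0.31 and 0.315 FPKM in the naive C57 libraries. CAST ganglia were far below the other strains in both states, and in each strain the injured libraries were below the naive ones. Scn4a fell 2.68-fold in CAST (-1.04 ± 0.11, adjusted p = 2.04e-08), 1.53-fold in DBA (-0.58 ± 0.11, adjusted p = 8.58e-05) and 1.73-fold in C57 (-0.74 ± 0.11, adjusted p = 5.57e-06). In naive DBA ganglia the 10 skeletal muscle markers summed to 42.7, 9.48, 278.1 and 17.9 CPM in replicates 1 to 4. Replicates 1 and 3 also held the most Scn4a, in nearly equal amounts. In naive C57 ganglia the sums were 12.4, 22.7, 4.98 and 21.4 CPM, and in naive CAST ganglia 13.7, 6.83, 9.91 and 47.2 CPM. After crush, 6 markers were lower in DBA, 1 was higher and none lower in CAST, and none was called in C57. Between naive groups, none was called in CAST against C57, and 1 was lower in CAST than in DBA. The markers' part in the Scn4a values was not tested. Scn7a, the sodium sensor Nax, which is also made by glia, had the smallest changes of the 8 alpha genes called, -0.30 ± 0.077 in CAST, -0.57 ± 0.077 in DBA and -0.25 ± 0.077 in C57. The C57 call of Scn7a was lost without naive C57 replicate 2 (adjusted p = 0.0649) or replicate 3 (-0.16, 0.0775).

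All 4 beta subunit genes were lower in each strain. Scn2b and Scn4b encode the subunits that bind the alpha subunit through a disulfide bond, and Scn4b also supplies the peptide that blocks and reopens channels in resurgent current. In CAST, Scn4b had 13.9, 13.3, 13.4 and 14.4 FPKM in the injured libraries, against 21.7, 21.96, 23.8 and 23.1 FPKM in the naive libraries. In DBA, Scn4b had 9.96, 10.4, 10.7 and 11.04 FPKM in the injured libraries, against 23.4, 21.9, 21.7 and 22.1 FPKM in the naive libraries. In C57, Scn4b had 13.7, 14.5, 13.4 and 14.5 FPKM in the injured libraries, against 22.4, 26.4, 25.7 and 23.7 FPKM in the naive libraries. Replicates were tight and the states far apart, with injured DBA ganglia the lowest. Scn4b fell 1.65-fold in CAST (-0.72 ± 0.05, adjusted p = 1.31e-11), 2.12-fold in DBA (-1.08 ± 0.05, adjusted p = 6.53e-15) and 1.75-fold in C57 (-0.81 ± 0.05, adjusted p = 2.6e-12).

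Scn2b in CAST stood at 2.01, 1.96, 1.52 and 1.87 FPKM after crush and at 3.73, 4.06, 4.07 and 3.64 FPKM in naive ganglia. Scn2b in DBA stood at 0.431, 0.533, 0.481 and 0.468 FPKM after crush and at 1.2, 1.18, 1.17 and 1.17 FPKM in naive ganglia. Scn2b in C57 stood at 1.06, 1.28, 1.2 and 1.3 FPKM after crush and at 1.86, 2.17, 2.26 and 2.03 FPKM in naive ganglia. All injured ranges were below the naive ones, and the strains also differed among themselves, CAST above C57 and C57 above DBA in both states. Scn2b fell 2.1-fold in CAST (-1.06 ± 0.08, adjusted p = 5.59e-11), 2.46-fold in DBA (-1.23 ± 0.08, adjusted p = 3.18e-12) and 1.72-fold in C57 (-0.76 ± 0.08, adjusted p = 2.95e-08). The whole of Scn2b lies under Gm10684, a long noncoding transcript of the opposite strand, whose changes were -1.06 in CAST, -1.19 in DBA and -0.78 in C57, so reads of the pair cannot be told apart. Scn3b changed by -0.76 ± 0.072 in CAST, -1.03 ± 0.072 in DBA and -0.44 ± 0.072 in C57.

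**Figure D2:**
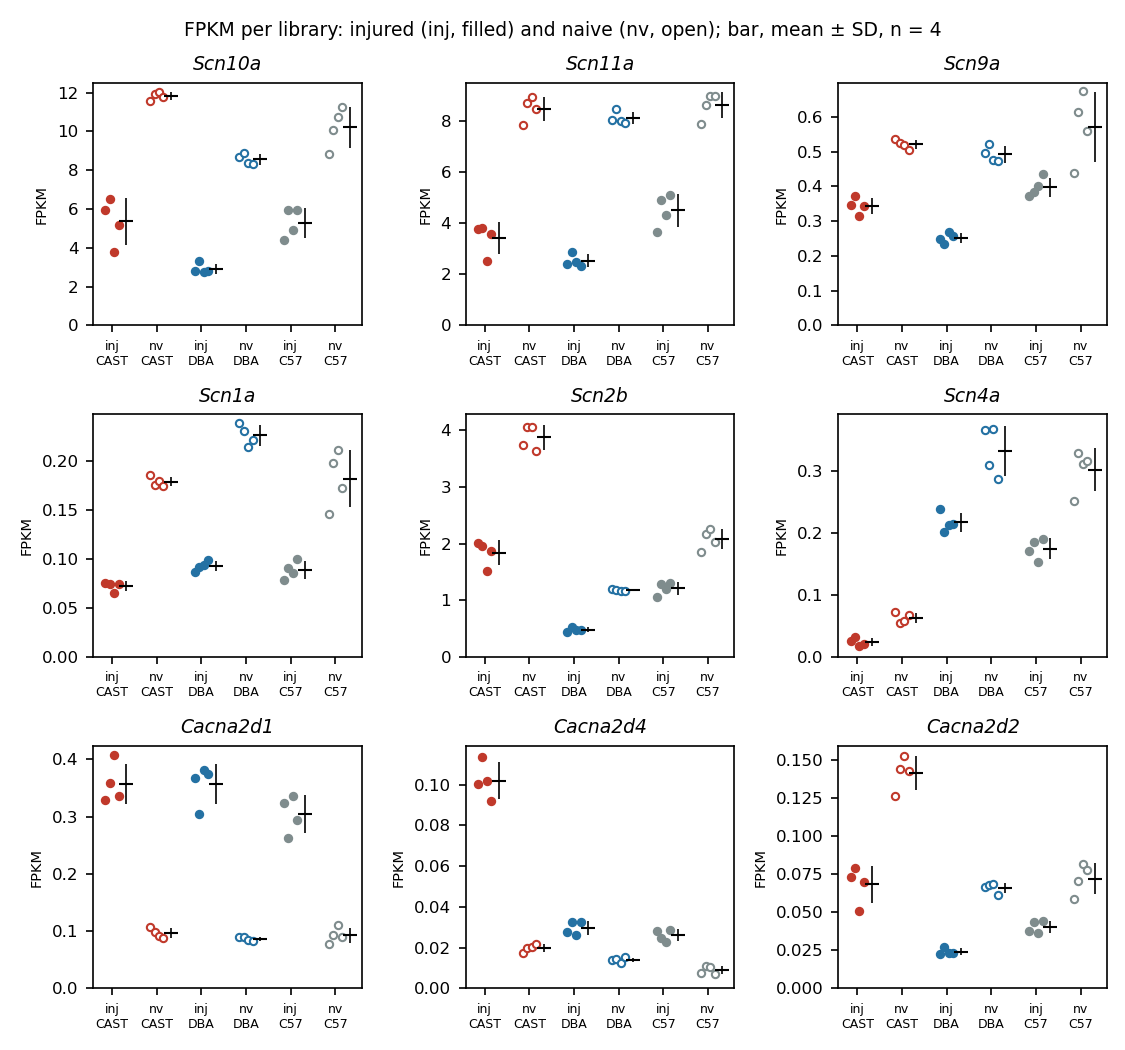
FPKM in each library for 9 channel genes, injured (filled) left of naive (open) in CAST (red), DBA (blue) and C57 (grey); the bar beside the points is the mean ± SD of 4 libraries. The injured libraries lie below the naive ones for all genes shown except Cacna2d1 and Cacna2d4, where they lie above, and injured CAST ganglia stand alone for Cacna2d4 at 0.102 FPKM on average.

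Fewer of the calcium channel pores were called. Cacna1a, the P/Q-type channel of central nerve terminals, passed in no strain. For Cacna1a, injured CAST ganglia gave 0.232, 0.266, 0.201 and 0.207 FPKM, and naive CAST ganglia 0.248, 0.248, 0.266 and 0.247 FPKM. For Cacna1a, injured DBA ganglia gave 0.227, 0.219, 0.23 and 0.224 FPKM, and naive DBA ganglia 0.237, 0.234, 0.228 and 0.205 FPKM. For Cacna1a, injured C57 ganglia gave 0.234, 0.214, 0.197 and 0.247 FPKM, and naive C57 ganglia 0.176, 0.24, 0.281 and 0.256 FPKM. Ranges of the 2 states overlapped in every strain. The changes were -0.16 ± 0.10, adjusted p = 0.212 in CAST, -0.0065 ± 0.10, adjusted p = 0.965 in DBA and -0.079 ± 0.10, adjusted p = 0.587 in C57. Without naive C57 replicate 1 the C57 change was -0.22 and passed (adjusted p = 0.0349).

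Cacna1b encodes the N-type channel, which drives transmitter release from nociceptor terminals in the spinal cord. Injured CAST libraries held Cacna1b at 0.29, 0.359, 0.246 and 0.26 FPKM, compared with 0.264, 0.277, 0.267 and 0.261 FPKM in the naive CAST libraries. Injured DBA libraries held Cacna1b at 0.258, 0.253, 0.254 and 0.267 FPKM, compared with 0.217, 0.217, 0.203 and 0.187 FPKM in the naive DBA libraries. Injured C57 libraries held Cacna1b at 0.292, 0.279, 0.263 and 0.3004 FPKM, compared with 0.18, 0.226, 0.264 and 0.263 FPKM in the naive C57 libraries. Only in DBA did the injured libraries all lie above the naive ones. Cacna1b was 1.08-fold higher in CAST (0.095 ± 0.1, adjusted p = 0.467), 1.25-fold in DBA (0.32 ± 0.1, adjusted p = 0.00923) and 1.22-fold in C57 (0.29 ± 0.1, adjusted p = 0.0214). The C57 call was lost without naive C57 replicate 1 (a change of 0.18, adjusted p = 0.113), injured C57 replicate 1 (0.0520) or injured C57 replicate 4 (0.0608).

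The T-type pores open near the resting potential, and Cacna1h (Cav3.2) is the main one of sensory neurons. In CAST, Cacna1h had 0.197, 0.217, 0.128 and 0.156 FPKM in the injured libraries, against 0.276, 0.287, 0.284 and 0.279 FPKM in the naive libraries. In DBA, Cacna1h had 0.24, 0.283, 0.23 and 0.254 FPKM in the injured libraries, against 0.395, 0.392, 0.378 and 0.355 FPKM in the naive libraries. In C57, Cacna1h had 0.224, 0.234, 0.185 and 0.243 FPKM in the injured libraries, against 0.212, 0.267, 0.311 and 0.304 FPKM in the naive libraries. CAST and DBA libraries separated by state, whereas the C57 ranges overlapped. Cacna1h was 1.61-fold lower in CAST (-0.69 ± 0.12, adjusted p = 5.59e-05), 1.51-fold in DBA (-0.58 ± 0.12, adjusted p = 0.000357) and 1.23-fold in C57 (-0.29 ± 0.12, adjusted p = 0.0699). Without naive C57 replicate 1, the C57 change was -0.40 and passed (adjusted p = 0.00945).

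Cacna1i in CAST stood at 0.0337, 0.0378, 0.0172 and 0.0212 FPKM after crush and at 0.0376, 0.049, 0.047 and 0.0443 FPKM in naive ganglia. Cacna1i in DBA stood at 0.0164, 0.0194, 0.0149 and 0.0121 FPKM after crush and at 0.0497, 0.0502, 0.048 and 0.0448 FPKM in naive ganglia. Cacna1i in C57 stood at 0.0222, 0.0313, 0.0245 and 0.0336 FPKM after crush and at 0.0468, 0.0532, 0.0622 and 0.066 FPKM in naive ganglia. Cacna1i, the T-type channel Cav3.3, thus separated by state in DBA and C57, and in CAST 1 naive library lay within the injured range. It was 1.62-fold lower in CAST (-0.66 ± 0.17, adjusted p = 0.00189), 3.07-fold in DBA (-1.39 ± 0.17, adjusted p = 1.79e-07) and 2.05-fold in C57 (-0.93 ± 0.17, adjusted p = 7.46e-05). Cacna1e, the R-type channel, changed by -0.49 ± 0.18 in CAST, -1.15 ± 0.18 in DBA and -0.63 ± 0.18 in C57. The CAST call of Cacna1e was lost without injured CAST replicate 3 (adjusted p = 0.115), naive CAST replicate 2 (0.0672) or naive CAST replicate 3 (0.0607), and on the log2(FPKM + 1) and log2(FPKM + 0.1) scales (0.0838 and 0.0668). Its C57 change was -0.41 without naive C57 replicate 3 and still passed (0.0325). The C57 call of Cacna1e was lost when the C57 groups were fitted alone (0.0572). The lowest naive C57 library, at 0.0199 FPKM, lay within the injured C57 range of 0.0179 to 0.0219 FPKM. Of the L-type pores, Cacna1c passed in DBA alone (-0.37 ± 0.12, adjusted p = 0.0119), against -0.17 ± 0.12, adjusted p = 0.263 in CAST and -0.05 ± 0.12, adjusted p = 0.781 in C57. Cacna1d and the T-type gene Cacna1g passed in no strain, with adjusted p-values of at least 0.106, and Cacna1g had at most 36.4 estimated reads in a library.

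Cacna1s, the L-type pore of skeletal muscle, was near the detection limit. For Cacna1s, injured CAST ganglia gave 0.00341, 0.00209, 0.00126 and 0.00175 FPKM, and naive CAST ganglia 0.00162, 0.00137, 0.00238 and 0.00415 FPKM. For Cacna1s, injured DBA ganglia gave 0.00131, 0.00059, 0.00128 and 0.00102 FPKM, and naive DBA ganglia 0.00227, 0.0017, 0.00906 and 0.0021 FPKM. For Cacna1s, injured C57 ganglia gave 0.00113, 0.00101, 0.00122 and 0.00116 FPKM, and naive C57 ganglia 0.00183, 0.00218, 0.00192 and 0.00171 FPKM. In naive DBA ganglia replicate 3 stood far above the others. The DBA ratio of means was 3.61-fold lower (-0.36 ± 0.12, adjusted p = 0.0176), and the call was lost without that library (-0.16, adjusted p = 0.0851). In CAST and C57 the changes were -0.034 ± 0.12, adjusted p = 0.854 and -0.13 ± 0.12, adjusted p = 0.453. The C57 ranges did not overlap, and the C57 change passed when the C57 groups were fitted alone (adjusted p = 0.0475). With the DBA groups fitted alone, the DBA call was lost (0.119). The 10 skeletal muscle markers moved with Cacna1s in DBA, with 6 lower and none higher, and their summed CPM was 6.24 to 11.7 in injured and 9.48 to 278.1 in naive DBA libraries. In CAST 1 of the 10 was higher, and in C57 none passed.

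Cacna2d1, the alpha2delta subunit bound by gabapentin and pregabalin, was the member with the greatest rise in DBA and C57. It spans 15934691 to 16374511 on the plus strand of chromosome 5 (mm10), and because it moved against the sodium channels, the 250 bases before its RefSeq start at chr5:15934441-15934690 are shown (5′ to 3′, RefSeq, GRCm38.p6), with the GC boxes (GGGCGG or its complement CCGCCC) in capitals.
Cacna2d1: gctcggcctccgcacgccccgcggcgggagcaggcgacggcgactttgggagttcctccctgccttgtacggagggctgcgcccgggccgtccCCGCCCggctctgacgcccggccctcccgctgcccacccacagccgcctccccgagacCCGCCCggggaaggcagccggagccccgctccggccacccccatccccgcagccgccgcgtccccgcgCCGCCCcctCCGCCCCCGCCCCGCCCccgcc
With 82.4% C or G and 36 CpG this window differs from those of Scn10a and Scn11a, and it holds 6 GC boxes and no AP-1 letters. A GC box was found for 15 of the 29 members in the promoter table. Of these, Cacna2d2, Cacna2d3, Cacnb4, Cacng7 and Scn7a were lower in all 3 strains, and only Cacna2d1 was higher in all 3. The bearing of GC boxes on the changes was not tested. Injured CAST libraries held Cacna2d1 at 0.328, 0.358, 0.407 and 0.336 FPKM, compared with 0.107, 0.0983, 0.0907 and 0.0887 FPKM in the naive CAST libraries. Injured DBA libraries held Cacna2d1 at 0.367, 0.304, 0.381 and 0.373 FPKM, compared with 0.0894, 0.0902, 0.0846 and 0.0819 FPKM in the naive DBA libraries. Injured C57 libraries held Cacna2d1 at 0.324, 0.263, 0.336 and 0.294 FPKM, compared with 0.0782, 0.0934, 0.11 and 0.0896 FPKM in the naive C57 libraries. The lowest injured library, at 0.263 FPKM, was well above the highest naive one, at 0.110 FPKM. Cacna2d1 was 3.71-fold higher in CAST (1.88 ± 0.095, adjusted p = 4.22e-14), 4.12-fold in DBA (2.02 ± 0.095, adjusted p = 8.93e-15) and 3.28-fold in C57 (1.71 ± 0.095, adjusted p = 3.64e-13).

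Cacna2d4 encodes an alpha2delta subunit best known from the retina, and it was higher after crush by unequal amounts. In CAST, Cacna2d4 had 0.1003, 0.114, 0.102 and 0.0918 FPKM in the injured libraries, against 0.0173, 0.0199, 0.0204 and 0.0218 FPKM in the naive libraries. In DBA, Cacna2d4 had 0.0275, 0.0327, 0.0261 and 0.0324 FPKM in the injured libraries, against 0.0139, 0.0144, 0.0125 and 0.0152 FPKM in the naive libraries. In C57, Cacna2d4 had 0.0279, 0.0248, 0.0228 and 0.0289 FPKM in the injured libraries, against 0.00746, 0.0108, 0.0105 and 0.00706 FPKM in the naive libraries. The states separated in each strain, and injured CAST ganglia stood above all other groups. Cacna2d4 was 5.13-fold higher in CAST (2.14 ± 0.096, adjusted p = 5.18e-15), 2.12-fold in DBA (0.89 ± 0.096, adjusted p = 2.79e-08) and 2.91-fold in C57 (1.20 ± 0.096, adjusted p = 3.13e-10). Lrtm2 on the opposite strand covers 13.5% of its span, with 115 estimated reads on average against 441.5 for Cacna2d4.

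Cacna2d2, which also binds gabapentin and has been described in mouse as a brake on axon growth of adult sensory neurons, went the other way. Cacna2d2 in CAST stood at 0.0732, 0.0793, 0.0509 and 0.0695 FPKM after crush and at 0.126, 0.144, 0.153 and 0.142 FPKM in naive ganglia. Cacna2d2 in DBA stood at 0.0225, 0.0273, 0.0229 and 0.0232 FPKM after crush and at 0.0664, 0.0676, 0.0687 and 0.0612 FPKM in naive ganglia. Cacna2d2 in C57 stood at 0.0379, 0.0433, 0.0361 and 0.044 FPKM after crush and at 0.0586, 0.0702, 0.0815 and 0.078 FPKM in naive ganglia. Injured libraries were below naive ones throughout, and CAST exceeded the other strains in both states. Cacna2d2 was 2.07-fold lower in CAST (-1.02 ± 0.11, adjusted p = 1.4e-08), 2.75-fold in DBA (-1.33 ± 0.11, adjusted p = 1.33e-10) and 1.79-fold in C57 (-0.78 ± 0.11, adjusted p = 1.7e-06). Cacna2d3 was lower by less, with changes of -0.46 ± 0.049 in CAST, -0.22 ± 0.049 in DBA and -0.20 ± 0.049 in C57.

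Cacnb3 had the highest level per kilobase of exon among the calcium channel beta subunit genes. For Cacnb3, injured CAST ganglia gave 11.2, 11.2, 9.22 and 10.3 FPKM, and naive CAST ganglia 12.3, 12.4, 11.6 and 12.3 FPKM. For Cacnb3, injured DBA ganglia gave 11.2, 11.7, 10.003 and 11.2 FPKM, and naive DBA ganglia 12.99, 12.6, 11.6 and 12.6 FPKM. For Cacnb3, injured C57 ganglia gave 12.3, 13.5, 11.5 and 13.2 FPKM, and naive C57 ganglia 14.3, 12.9, 12.6 and 14.4 FPKM. Changes were small beside the level, and the states separated in CAST alone. Cacnb3 was 1.16-fold lower in CAST (-0.21 ± 0.065, adjusted p = 0.00844), 1.13-fold in DBA (-0.18 ± 0.065, adjusted p = 0.0267) and 1.07-fold in C57 (-0.098 ± 0.065, adjusted p = 0.246). The CAST call was lost without injured CAST replicate 3 (adjusted p = 0.0506). The DBA call was lost without injured DBA replicate 3 (0.116) or naive DBA replicate 1 (0.0777), replicate 2 (0.0554) or replicate 4 (0.0571). Cacnb4 was lower in each strain, with changes of -0.88 ± 0.074 in CAST, -0.79 ± 0.074 in DBA and -0.60 ± 0.074 in C57. A430018G15Rik on the opposite strand covers 2.64% of the span of Cacnb4. It had 5749 estimated reads on average against 4308 for Cacnb4, and its changes were not analysed here. Cacnb1 and Cacnb2 passed in no strain, with changes between -0.079 and 0.064.

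Among the gamma genes, Cacng2, the AMPA receptor partner stargazin, was lower throughout, with changes of -1.08 ± 0.084 in CAST, -0.75 ± 0.084 in DBA and -0.89 ± 0.084 in C57. Cacng7 was lower in all 3 strains with changes of -0.16 to -0.10, and its calls in CAST and DBA were each lost without any of 6 of the 8 libraries (all but injured CAST replicate 3, naive CAST replicate 1, injured DBA replicate 4 and naive DBA replicate 4). Cacng3 was lower in CAST (-0.28 ± 0.12, adjusted p = 0.0488) and DBA (-0.75 ± 0.12, adjusted p = 6.53e-06). Its CAST call was lost without injured CAST replicate 1, 3 or 4 or naive CAST replicate 1, 2 or 4 (adjusted p of 0.053 to 0.201) and on the log2(FPKM + 1) and log2(FPKM + 0.1) scales (0.110 and 0.0993). Cacng4 was lower in CAST (-0.50 ± 0.072, adjusted p = 2.98e-06) and C57 (-0.34 ± 0.072, adjusted p = 0.000395). Cacng5 changed by -0.17 ± 0.044, adjusted p = 0.00285 in CAST, 0.085 ± 0.044, adjusted p = 0.112 in DBA and 0.18 ± 0.044, adjusted p = 0.00231 in C57.

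Injured CAST libraries held Cacng8 at 0.043, 0.0437, 0.0621 and 0.031 FPKM, compared with 0.0242, 0.0379, 0.0315 and 0.0324 FPKM in the naive CAST libraries. Injured DBA libraries held Cacng8 at 0.0691, 0.066, 0.0723 and 0.0641 FPKM, compared with 0.0307, 0.0396, 0.0266 and 0.0319 FPKM in the naive DBA libraries. Injured C57 libraries held Cacng8 at 0.0668, 0.0582, 0.0353 and 0.066 FPKM, compared with 0.0359, 0.0652, 0.0528 and 0.0644 FPKM in the naive C57 libraries. Cacng8, another AMPA receptor partner, thus separated by state in DBA alone. It was 1.43-fold higher in CAST (0.32 ± 0.15, adjusted p = 0.0742), 2.11-fold in DBA (0.76 ± 0.15, adjusted p = 0.000119) and 1.04-fold in C57 (0.036 ± 0.15, adjusted p = 0.877). The CAST change passed without injured CAST replicate 4 (0.43, adjusted p = 0.0217). An antisense gene, Gm44151, covers 37.4% of Cacng8 and was not analysed here. Cacng1, the gamma subunit of the muscle channel, was scarcely detected. In CAST, Cacng1 had 0.00472, 0.00539, 0.00721 and 0.00723 FPKM in the injured libraries, against 0.00361, 0.00131, 0.00224 and 0.0043 FPKM in the naive libraries. In DBA, Cacng1 had 0.00835, 0.00732, 0.00563 and 0.0104 FPKM in the injured libraries, against 0.00855, 0.00995, 0.0386 and 0.0033 FPKM in the naive libraries. In C57, Cacng1 had 0.0049, 0.00302, 0.0117 and 0.00135 FPKM in the injured libraries, against 0.00626, 0.00464, 0.00307 and 0.00768 FPKM in the naive libraries. Naive DBA replicate 3 was again the highest, and only in CAST did the injured libraries all exceed the naive ones. None of the 3 changes passed (0.11 ± 0.12, adjusted p = 0.457 in CAST, -0.17 ± 0.12, adjusted p = 0.235 in DBA and -0.01 ± 0.12, adjusted p = 0.957 in C57), and the DBA change passed without naive DBA replicate 4 (-0.28, adjusted p = 0.0450).

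Partner genes of the channels were read from a fixed list, of which 23 of 25 were found. Of 10 sodium channel partners, 3 were higher and 6 lower in CAST, 4 and 4 in DBA, and 4 and 5 in C57. Of 9 calcium channel partners and inhibitors, 5 were higher and 4 lower in CAST, 4 and 5 in DBA, and 2 and 4 in C57. In the NALCN sodium leak channel complex, 1 gene was higher and 3 were lower in each strain. Among all genes tested, 26.7% were higher and 22.4% lower in CAST, 27.5% and 24.7% in DBA, and 19.5% and 21.3% in C57. Fgf11 and Fgf12 encode intracellular proteins that bind the tail of sodium channels, and they moved apart. Fgf11 in CAST stood at 5.6, 5.83, 7.36 and 6.11 FPKM after crush and at 1.36, 1.38, 1.29 and 1.5 FPKM in naive ganglia. Fgf11 in DBA stood at 4.11, 3.86, 3.87 and 4.19 FPKM after crush and at 1.49, 1.4, 1.18 and 1.24 FPKM in naive ganglia. Fgf11 in C57 stood at 3.52, 3.34, 3.54 and 3.4 FPKM after crush and at 1.55, 1.87, 1.83 and 1.71 FPKM in naive ganglia. Injured ganglia were above naive ones throughout, and injured CAST ganglia were the highest. Fgf11 was 4.5-fold higher in CAST (2.10 ± 0.076, adjusted p = 9.2e-17), 3.02-fold in DBA (1.54 ± 0.076, adjusted p = 2.58e-14) and 1.98-fold in C57 (0.95 ± 0.076, adjusted p = 3.09e-10). Its response was greater in CAST than in DBA (0.56 ± 0.11, adjusted p = 0.00065) and C57 (1.14 ± 0.11, adjusted p = 4.44e-08).

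For Fgf12, injured CAST ganglia gave 0.326, 0.281, 0.292 and 0.334 FPKM, and naive CAST ganglia 0.642, 0.681, 0.693 and 0.645 FPKM. For Fgf12, injured DBA ganglia gave 0.326, 0.345, 0.381 and 0.362 FPKM, and naive DBA ganglia 0.806, 0.862, 0.843 and 0.85 FPKM. For Fgf12, injured C57 ganglia gave 0.408, 0.519, 0.548 and 0.53 FPKM, and naive C57 ganglia 0.91, 0.976, 0.961 and 0.835 FPKM. Here every injured library was below the naive ones. Fgf12 was 2.16-fold lower in CAST (-1.11 ± 0.075, adjusted p = 8.98e-12), 2.38-fold in DBA (-1.25 ± 0.075, adjusted p = 8.49e-13) and 1.84-fold in C57 (-0.88 ± 0.075, adjusted p = 9.13e-10). Rem2, a small GTPase that inhibits high-voltage-activated calcium channels, was lower in CAST (-1.39 ± 0.093, adjusted p = 7.01e-12), DBA (-1.68 ± 0.093, adjusted p = 1.9e-13) and C57 (-1.04 ± 0.093, adjusted p = 2.14e-09). Stac, an adaptor of L-type channels, was higher in CAST (0.56 ± 0.049, adjusted p = 7.73e-10), DBA (0.74 ± 0.049, adjusted p = 4.9e-12) and C57 (0.93 ± 0.049, adjusted p = 1.19e-13). The leak channel pore Nalcn changed by -1.01 ± 0.085, -1.09 ± 0.085 and -0.69 ± 0.085 in CAST, DBA and C57, and its partner Unc80 by -0.89 ± 0.11, -1.11 ± 0.11 and -0.98 ± 0.11.

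The interaction contrasts tested whether the crush response itself differed between strains. They gave 22 calls in 16 members. CAST against C57 had 1 higher and 3 lower, where 12.3% of all genes were called (7.32% higher and 5.02% lower). CAST against DBA had 4 higher and 4 lower, at a background of 14.5% (7.75% higher and 6.72% lower). DBA against C57 had 1 higher and 9 lower, at a background of 9.23% (4.89% higher and 4.34% lower). Of the 22 calls, 13 were kept when each library in turn was left out.

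The response of Cacna2d4 in CAST exceeded that in C57 by 0.93 ± 0.14, adjusted p = 3.02e-05 and that in DBA by 1.25 ± 0.14, adjusted p = 3.99e-07. Between DBA and C57 its response did not pass (-0.31 ± 0.14, adjusted p = 0.176). The macrophage markers moved the same way, with 7 of 7 higher in the response of CAST than in that of C57 (median difference 0.62) and 5 of 7 higher than in that of DBA (0.60), and their part in the Cacna2d4 difference was not tested. For Cacna2d1 no difference passed, with 0.17 ± 0.13, adjusted p = 0.493 for CAST minus C57, -0.15 ± 0.13, adjusted p = 0.556 for CAST minus DBA and 0.32 ± 0.13, adjusted p = 0.157 for DBA minus C57. The response of Cacna2d3 was more negative in CAST than in C57 (-0.26 ± 0.069, adjusted p = 0.013) and DBA (-0.24 ± 0.069, adjusted p = 0.0201), the second call being lost without naive CAST replicate 3 (adjusted p = 0.0528). Cacng5 also differed between CAST and both others (-0.34 ± 0.062, adjusted p = 0.000428 against C57 and -0.25 ± 0.062, adjusted p = 0.00654 against DBA), and Cacng4 between CAST and DBA (-0.36 ± 0.10, adjusted p = 0.0157). The calls of Cacna2d3 and Cacng4 were lost on both FPKM scales, log2(FPKM + 1) and log2(FPKM + 0.1). For Cacna2d3 the adjusted p was 0.0985 and 0.0659 in CAST minus C57 and 0.153 and 0.0976 in CAST minus DBA, and for Cacng4 it was 0.411 and 0.133.

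For 7 of the 13 sodium channel genes the fall was greater in DBA than in C57. Among these, the difference was -0.74 ± 0.15, adjusted p = 0.00244 for Scn11a, -0.61 ± 0.17, adjusted p = 0.0265 for Scn10a and -0.45 ± 0.12, adjusted p = 0.0189 for Scn9a. Among the beta genes it was -0.59 ± 0.10, adjusted p = 0.000372 for Scn3b, -0.47 ± 0.11, adjusted p = 0.00775 for Scn2b and -0.27 ± 0.07, adjusted p = 0.0135 for Scn4b. Gm10684, whose reads cannot be told apart from those of Scn2b, differed by -0.41 ± 0.11 (adjusted p = 0.0207). Gm13629, whose reads cannot be told apart from those of Scn9a in the shared stretch, differed by -0.48 ± 0.11 (adjusted p = 0.00467). Scn1a and Scn8a, the channels of myelinated neurons, did not pass, with -0.25 ± 0.12, adjusted p = 0.213 and -0.12 ± 0.13, adjusted p = 0.696. Of the nociceptor markers, 5 of 8 also fell further in DBA than in C57, and of the 7 markers of myelinated sensory neurons none did and 1 fell less. Their part in the channel genes' difference was not tested. The Scn10a call was lost without any of 7 libraries (injured DBA replicates 1, 3 and 4, naive DBA replicate 2, injured C57 replicates 2 and 4, naive C57 replicate 1), with adjusted p-values of 0.0507 to 0.0633. Cacna2d2 also fell further in DBA (-0.55 ± 0.15, adjusted p = 0.0186). On the log2(FPKM + 1) scale, calls of this contrast were lost for Scn9a (adjusted p = 0.270), Scn10a (0.0687), Scn2b (0.619) and Cacna2d2 (0.512), and on the log2(FPKM + 0.1) scale for Scn9a (0.0642) and Cacna2d2 (0.290).

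Against DBA, the fall in CAST was smaller for Scn4b (0.36 ± 0.07, adjusted p = 0.000698), Scn9a (0.36 ± 0.12, adjusted p = 0.0481) and Cacna1i (0.73 ± 0.23, adjusted p = 0.0374), and greater for Scn4a (-0.46 ± 0.15, adjusted p = 0.0474). These calls other than that of Scn4b were close to the threshold. Scn9a lost it without any of 14 of the 16 libraries (all but injured CAST replicate 3 and injured DBA replicate 3). Cacna1i lost it without any of 10: injured CAST replicates 1 and 2, naive CAST replicates 1 and 4, injured DBA replicates 1, 3 and 4, and naive DBA replicates 1, 2 and 3. Scn4a lost it without any of 9: injured CAST replicates 3 and 4, naive CAST replicates 1 and 4, injured DBA replicates 1, 3 and 4, and naive DBA replicates 2 and 4. Scn4a also changed sign with the pseudocount, to 0.076 on the log2(FPKM + 1) scale. On the log2(FPKM + 1) and log2(FPKM + 0.1) scales the calls were lost for Scn9a (adjusted p = 0.293 and 0.113) and Cacna1i (0.101 and 0.0857). Gm13629, antisense to Scn9a, differed by 0.35 ± 0.11 in CAST minus DBA (adjusted p = 0.0287). Reads of the pair cannot be told apart in the shared stretch. Injured CAST replicate 3, the lowest CAST library for Scn10a and Scn11a, changed the count most. Without it the CAST against DBA count was 14, with 11 higher, and included Scn10a (0.55, adjusted p = 0.00497) and Scn11a (0.50, 0.00417), neither of which passed with it (0.152 and 0.135). The count was 5 without naive CAST replicate 1, naive CAST replicate 4 or injured DBA replicate 4.

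Some calls against C57 were also close to the threshold. Scn3b in CAST minus C57 (-0.32 ± 0.10, adjusted p = 0.0413) was lost without any of 10 libraries (adjusted p of 0.055 to 0.0811): injured CAST replicate 3, all 4 naive CAST libraries, injured C57 replicates 2, 3 and 4, and naive C57 replicates 1 and 4. Cacng3 in DBA minus C57 (-0.52 ± 0.16, adjusted p = 0.0498) was lost without any of 13 of the 16 (0.0524 to 0.111), all but naive DBA replicate 2, injured C57 replicate 1 and naive C57 replicate 1, and on both FPKM scales (0.0801 and 0.0786). Cacng8, higher in DBA than in C57 in its response (0.72 ± 0.21, adjusted p = 0.0284), lost the call without any of 7: injured DBA replicates 1 and 3, naive DBA replicates 1 and 3, injured C57 replicate 3, and naive C57 replicates 2 and 4. The CAST against C57 count was 7 without injured C57 replicate 1.

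**Figure D3:**
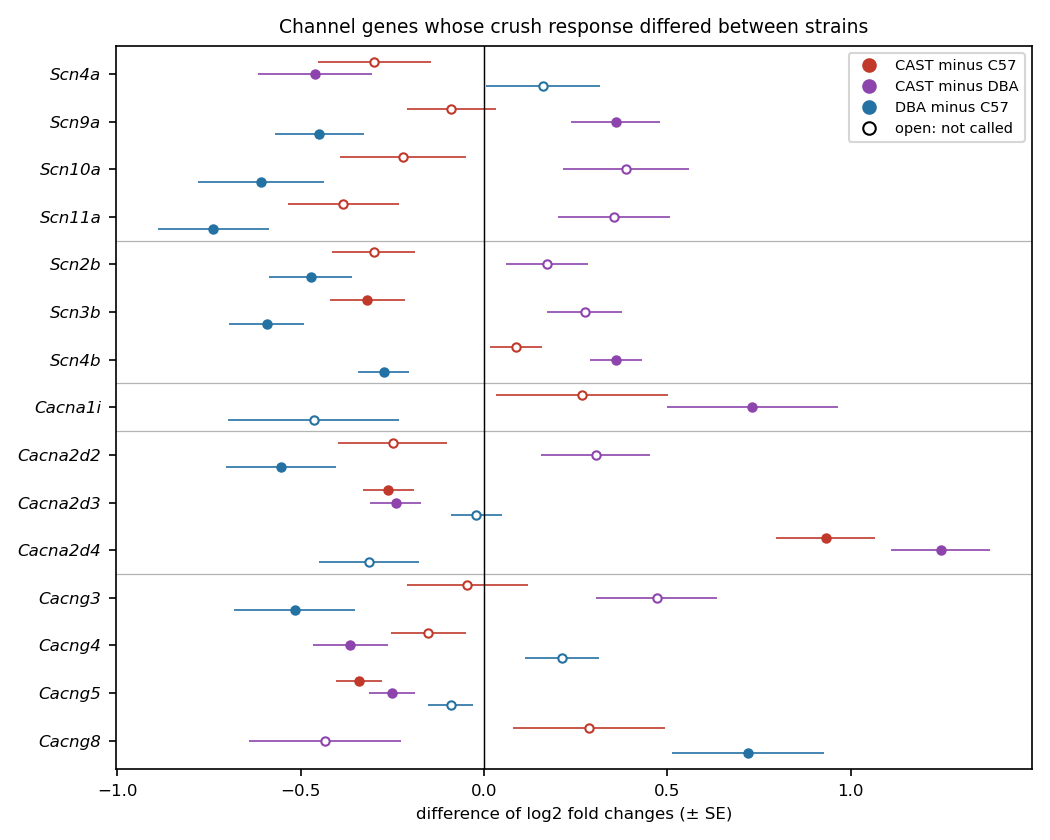
Difference between strains of the log2 fold change after crush (± SE) for 15 channel genes called in at least 1 of the 3 interaction contrasts, CAST minus C57 (red), CAST minus DBA (purple) and DBA minus C57 (blue); filled points passed an adjusted p of 0.05. The DBA minus C57 points of Scn9a, Scn10a, Scn11a, Scn2b, Scn3b and Scn4b lie left of 0, and Cacna2d4 lies at 0.93 and 1.25 in the CAST contrasts.

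Between naive ganglia of the strains, the share of channel genes called was close to that of all genes in CAST against C57 and above it in the other pairs. CAST against C57 had 12 members higher and 4 lower, where 46.3% of all genes were called (25.2% higher and 21.1% lower). CAST against DBA had 14 higher and 8 lower, at a background of 46.5% (24.6% and 22%), and DBA against C57 had 7 higher and 6 lower, at a background of 23% (12.2% and 10.8%). The members called came to 43.2%, 59.5% and 35.1% of the 37. Of these 51 calls, 44 were kept when each library in turn was left out. All strains were aligned to mm10, the genome of C57BL/6J mice, and the effect of strain variants on the counts was not tested. In CAST, 11 members (29.7%) were higher than in both other strains, where 17.9% of all genes were, among them Scn3a, Scn2b, Scn3b, Cacna2d2, Cacna2d4, Cacnb1, Cacnb2, Cacnb4, Cacng2 and Cacng5. The 3 that were lower in CAST than in both (8.11%, where 14.4% of all genes were) were Scn4a, Cacna2d3 and Cacng4. Markers of several cell types differed too. Schwann cell markers were lower in CAST than in DBA for 5 of 6, lower than in C57 for 4 and higher for 1, and higher in DBA than in C57 for 4; they summed to 1229 to 1623 CPM in naive CAST, 1888 to 2419 in naive DBA and 1572 to 1880 in naive C57 libraries. Of 6 smooth muscle markers, 5 were higher in CAST than in C57, 2 higher and 1 lower than in DBA, and 4 higher in DBA than in C57. Of 8 nociceptor markers, 4 were higher and 3 lower in CAST against each other strain, and 4 were lower in DBA than in C57. Of 7 markers of myelinated neurons, 4 were higher in CAST and 3 in DBA than in C57, and between CAST and DBA 1 was higher and 1 lower. Of 5 satellite glia markers, 3 were lower in CAST than in each other strain. The part of these shifts in the channel genes' differences was not tested.

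The largest strain difference was that of Scn4a, which in naive CAST ganglia was 4.78-fold lower than in C57 (-2.03 ± 0.11, adjusted p = 1.73e-13) and 5.27-fold lower than in DBA (-2.16 ± 0.11, adjusted p = 5.25e-14). Scn2b differed between each pair, CAST being 3.29-fold higher than DBA (1.68 ± 0.08, adjusted p = 1.44e-14) and 1.86-fold higher than C57 (0.89 ± 0.08, adjusted p = 1.81e-09), and DBA 1.77-fold lower than C57 (-0.80 ± 0.08, adjusted p = 3.06e-08). Gm10684, which covers the whole of Scn2b on the opposite strand, differed by 1.58, 0.86 and -0.72 in the same order. It had 4817 estimated reads on average against 2325 for Scn2b, and reads of the pair cannot be told apart. Cacna2d2 was 2.14-fold higher in CAST than in DBA (1.05 ± 0.11, adjusted p = 1.15e-08) and 1.96-fold higher than in C57 (0.94 ± 0.11, adjusted p = 7.05e-08). Cacnb4 was higher in CAST by 0.77 ± 0.074 against DBA and 0.65 ± 0.074 against C57, and Scn3a by 0.45 ± 0.097 and 0.66 ± 0.097. The strain differences of A430018G15Rik, which overlaps Cacnb4 on the opposite strand, were not analysed here.

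Of the nociceptor channels, Scn10a was 1.38-fold higher in CAST than in DBA (0.47 ± 0.12, adjusted p = 0.00295) and did not pass against C57 (0.22 ± 0.12, adjusted p = 0.152), and Scn11a and Scn9a passed in no pair. Cacna1h was higher in DBA, by 0.48 ± 0.12, adjusted p = 0.00611 against C57, and lower in CAST than in DBA (-0.42 ± 0.12, adjusted p = 0.0072). Scn1a was higher in DBA than in C57 (0.32 ± 0.083, adjusted p = 0.00569) and lower in CAST than in DBA (-0.33 ± 0.083, adjusted p = 0.00204). Cacng8 was lower than in C57 in both CAST (-0.52 ± 0.15, adjusted p = 0.00513) and DBA (-0.50 ± 0.15, adjusted p = 0.0145), and the DBA call was lost without naive DBA replicate 3 (adjusted p = 0.0513) or naive C57 replicate 2 (0.0571) or 4 (0.0551). Cacng1 was lower in CAST than in DBA (-0.34 ± 0.12, adjusted p = 0.0189), a call lost without naive DBA replicate 3 (-0.15, adjusted p = 0.0829). Of the other naive calls, Cacna1c in CAST minus C57 (0.30 ± 0.12, adjusted p = 0.0438) was lost without naive CAST replicate 1, 2 or 3 or naive C57 replicate 1 (0.15, adjusted p = 0.229) or 2, and Cacng3 in CAST minus DBA (-0.32 ± 0.12, adjusted p = 0.027) without naive CAST replicate 1, 3 or 4 or naive DBA replicate 1 or 4. In DBA minus C57, Cacng2 (-0.24 ± 0.084, adjusted p = 0.0372) was lost without naive DBA replicate 3 or 4 or naive C57 replicate 2, 3 or 4, and Scn4b (-0.14 ± 0.05, adjusted p = 0.0427) without naive DBA replicate 2, 3 or 4 or naive C57 replicate 2 or 3. Scn7a in the same pair (0.22 ± 0.077, adjusted p = 0.0393) was lost without naive DBA replicate 1, 2 or 3 or naive C57 replicate 1 (0.12, adjusted p = 0.172) or 4. Cacna2d1, the member with the strongest rise in 2 strains, did not pass in any naive pair. Its strain differences were 0.058 ± 0.095 for CAST minus C57, 0.15 ± 0.095 for CAST minus DBA and -0.091 ± 0.095 for DBA minus C57.

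**Figure D4:**
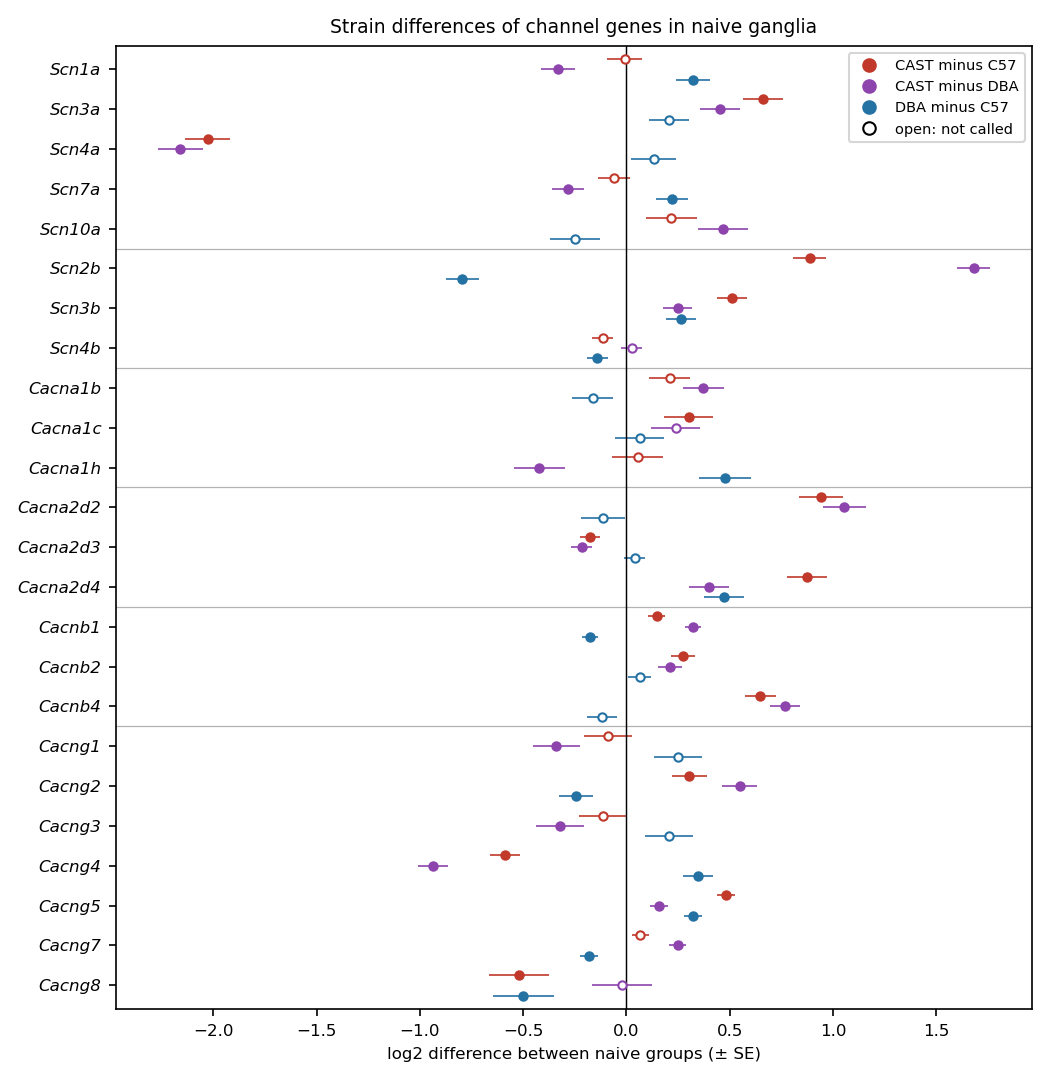
Log2 difference ± SE between naive ganglia of each pair of strains for 24 channel genes called in at least 1 pair, CAST minus C57 (red), CAST minus DBA (purple) and DBA minus C57 (blue); filled points passed an adjusted p of 0.05. Scn4a lies at -2.03 and -2.16 in the CAST contrasts, and Scn2b spans -0.80 to 1.68.

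Per kilobase of merged exon, the members covered a wide range over all 24 libraries. Because many members changed after crush, levels are given by state. The orders below leave out the members whose single values are not reported here. In injured libraries Scn10a averaged 62.9 estimated CPM per kilobase, Scn7a 48.3, Scn11a 42.0, Scn4b 40.3, Cacnb3 38.8 and Cacng7 33.8, and Cacna2d1 came next with 12.02. In naive libraries Scn10a averaged 142.0, Scn11a 101.4, Scn4b 73.3, Scn7a 62.8, Cacnb3 43.3 and Cacng7 36.9, and Cacna2d3 came next with 8.66. In the injured order the ranges of neighbours overlap, at 37.9 to 90.5 for Scn10a, 44.1 to 53.4 for Scn7a, 28.0 to 61.4 for Scn11a and 31.5 to 45.8 for Scn4b. That of Cacna2d1, 9.30 to 14.4, lies above that of Cacna2d3, 5.38 to 8.09. In naive libraries the range was 115.7 to 167.3 for Scn10a and 94.6 to 108.5 for Scn11a, which lies below it. Scn4b (68.5 to 83.6) and Scn7a (48.5 to 73.6) overlap each other. Reads from introns enter these values. Of the 10 highest by deposited FPKM, 7 are among the 10 highest per kilobase of exon.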

How the data were processed

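Ganglion RNA was taken up in Trizol and sequenced on Illumina chemistry, per the labels' protocols. The alignment used STAR 2.3.0 and mm10, per the submitters' processing notes. No source used here gives the counting tool, its annotation or its use of strand. One FPKM value per gene and library is what the authors deposited. The design text speaks of biological quadruplicates, and the labels' treatment protocol speaks of sham injury where the sample labels say naive.

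FPKM times genomic span (GENCODE M21, found for 95.3% of gene IDs) fell on whole reads for 67.9% of values of 0.5 to 100 reads, within 0.05 reads, against 10% by chance. In injured C57 replicate 1 the share was 67.9% with the span and 36.8% with merged exon length. The span gave library totals (median 107.1 M reads) and estimated CPM. Genes needed 10 estimated reads or more in 4 libraries or more (26139 tested, 12076 removed). The written plan took log2(estimated CPM + 0.5) as the main scale, because 1 FPKM exceeds the values of long genes. In R 4.3.3, limma 3.58.1 (statmod 1.5.0) fitted 6 group means to all 24 libraries (trend and robust), two-sided, with Benjamini-Hochberg adjustment per contrast, and was tested on simulated data. SEs pool the spread of all groups.

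Values in every library are given for the called members among the 5 largest crush changes per strain and the 3 largest in each interaction and naive contrast, for 12 members chosen by role, and for Scn4a, Cacna1s and Cacng1. Single values of 2 members that enter the counts are not reported here. Other members that are named were chosen after their values were seen. The members and lists were chosen with earlier results of these data known. Alternatives varied the pseudocount, filter, scaling, tool, samples and block.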

Additional observations from a re-analysis of the deposited data

Results flagged for a closer look

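In 6 of the 120 groups of 4 libraries tested for a value apart from the others, 1 library was separated by a gap above Dixon's 95% critical value; chance flags about 1 in 20 groups. In injured DBA ganglia, replicate 2 was high for Scn10a (gap 0.857 of the range) and Cacna2d2 (0.848). In injured CAST ganglia, replicate 3 was low for Scn1a (0.862). In naive CAST ganglia, replicate 3 was high for Cacna1a (0.981) and low for Cacnb3 (0.884). In naive DBA ganglia, replicate 3 was high for Cacna1s (0.923), and that library was also high for skeletal muscle markers.

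The crush response differed between strains by the interaction test in these 21 cases. For CAST minus C57 the log2 differences were 0.93 for Cacna2d4, -0.26 for Cacna2d3, -0.34 for Cacng5 and -0.32 for Scn3b. For CAST minus DBA they were 1.25 for Cacna2d4, 0.73 for Cacna1i, 0.36 for Scn4b, 0.36 for Scn9a, -0.24 for Cacna2d3, -0.36 for Cacng4, -0.25 for Cacng5 and -0.46 for Scn4a. For DBA minus C57 they were 0.72 for Cacng8, -0.55 for Cacna2d2, -0.52 for Cacng3, -0.61 for Scn10a, -0.74 for Scn11a, -0.47 for Scn2b, -0.59 for Scn3b, -0.27 for Scn4b and -0.45 for Scn9a.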

How the results depend on the processing

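Under 11 settings that changed a scale, filter, tool or set of samples, and with each library left out in turn, 167 combinations of member and contrast were compared; 3110 values kept direction and side of the threshold, 216 lost the call, 14 gained it and 2 reversed. The members called numbered 23 to 27 in CAST without 1 library (26 with all), 26 to 28 in DBA (28) and 23 to 25 in C57 (24), and no other setting moved these counts by over 1.5 times. Strain differences of the response moved more. CAST minus C57 (4 calls) gave 8 with log2(FPKM + 1) and 3 to 7 without 1 library. CAST minus DBA (8 calls) gave 4 with log2(FPKM + 0.1), 5 with no filter and 5 to 14 without 1 library. DBA minus C57 (10 calls) gave 4 with log2(FPKM + 1), 6 with log2(FPKM + 0.1) and 7 to 11 without 1 library. Scn4a in CAST minus DBA reversed to 0.076 (adjusted p = 0.0597) and 0.044 (0.841) with those pseudocounts, which exceed or approach its FPKM. Naive counts without 1 library were 15 to 21 for CAST minus C57 (16), 21 to 22 for CAST minus DBA (22) and 9 to 15 for DBA minus C57 (13). Another scaling shifted the median of all genes by at most 0.032 (log2).

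Same-numbered injured and naive libraries of a strain did not clearly deviate together. Over 12 such pairs the correlation ran from -0.19 to 0.13, with 2 pairs over 0.1. Libraries of different strains were not compared in this way. With the replicate number as a block, the calls were 25 in CAST, 28 in DBA and 24 in C57; 3, 6 and 9 in the interactions (CAST minus C57, CAST minus DBA, DBA minus C57); and 17, 22 and 13 in the naive contrasts. Depth limits Cacna1s, Cacng1, Cacna1g, Cacna1f and Cacng6, which had at most 52.0, 44.0, 36.4, 7.09 and 16.7 estimated reads in a library.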
